A study of Mus musculus with 67 samples.

Results

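The genes described here are 8 LIM homeobox transcription factors (Lhx2, Lhx9, Lmx1b, Lmx1a, Isl1, Isl2, Lhx6 and Lhx8) and the 2 LIM-domain-binding cofactors Ldb1 and Ldb2, found by gene name in the RNA-seq tables of mouse forelimb buds. They are 10 of 46983 gene IDs. RNA was sequenced from 14 pools of buds. The name of a stage gives the embryonic day (E). Whole forelimb buds were taken at E9.25, at 21 to 23 somites and before Hedgehog signaling, from 3 pools of WT and 4 pools of Gli3-/- embryos. Anterior forelimb buds were taken at E10.5, at 32 to 35 somites and after signaling began, from 4 pools of WT and 3 pools of Gli3-/- embryos. All embryos were on the Swiss Webster background, and Gli3-/- embryos carried the Gli3Xt-J allele in every cell. Per the labels, 4 pairs of buds were pooled in an E9.25 library and 2 pairs in an E10.5 library. Because the bud was whole at E9.25 and anterior at E10.5, stage and region cannot be told apart.

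LIM homeodomain proteins bind AT-rich DNA through a homeodomain and bind partner proteins through paired LIM domains. Ldb proteins dimerize and hold LIM homeodomain proteins in complexes that can join an enhancer to a promoter, and LIM-only proteins (Lmo) can compete for the same Ldb surface. In the limb bud, Lhx2 and Lhx9 act in distal mesenchyme in the signaling loop that joins it to the apical ectodermal ridge, and Lmx1b specifies dorsal mesenchyme downstream of Wnt7a. GLI3, a zinc-finger factor that mainly represses targets without Hedgehog signal, is the factor removed in the mutant.

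Promoter sequence is shown for the 3 LIM homeobox genes that carried nearly all LIM homeobox transcripts, because 2 of them were lower in Gli3-/- buds and the third shares its window with a divergent transcript. The windows are from RefSeq on GRCm38.p6, run 5′ to 3′ on the strand of the gene from 250 bases before the start, and have the 50 bases from the start onward in capitals. RefSeq windows matched 9 of the 10 genes, and Ldb2 had none.
Lhx2 (chr2:38339031-38339330, plus strand): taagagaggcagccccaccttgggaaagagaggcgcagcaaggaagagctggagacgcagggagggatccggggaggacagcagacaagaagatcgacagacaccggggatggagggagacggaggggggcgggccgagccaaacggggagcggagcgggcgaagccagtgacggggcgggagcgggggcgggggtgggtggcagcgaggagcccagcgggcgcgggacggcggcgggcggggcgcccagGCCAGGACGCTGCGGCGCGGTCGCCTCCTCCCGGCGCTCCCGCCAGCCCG
Lhx9 (chr1:138842395-138842694, minus strand): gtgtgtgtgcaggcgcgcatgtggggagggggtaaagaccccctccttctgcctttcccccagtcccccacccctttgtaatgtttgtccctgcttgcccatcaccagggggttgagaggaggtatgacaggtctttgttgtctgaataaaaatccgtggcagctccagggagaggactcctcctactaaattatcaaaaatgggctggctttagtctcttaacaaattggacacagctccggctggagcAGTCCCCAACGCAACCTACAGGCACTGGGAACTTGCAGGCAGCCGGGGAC
Lmx1b (chr2:33641049-33641348, minus strand): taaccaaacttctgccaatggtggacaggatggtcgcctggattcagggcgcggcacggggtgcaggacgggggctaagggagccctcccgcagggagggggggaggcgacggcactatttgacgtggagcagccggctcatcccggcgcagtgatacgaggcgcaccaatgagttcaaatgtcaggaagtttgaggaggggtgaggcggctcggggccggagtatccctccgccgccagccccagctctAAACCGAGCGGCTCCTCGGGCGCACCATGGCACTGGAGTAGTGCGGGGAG
The printed start of Lhx2 was at the first base of the gene in the deposited tables, whereas the RefSeq start of Lhx9 lay 6133 bases inside the gene as the tables give it. Lhx2 had a second RefSeq window, not printed, with its start 12027 bases inside the gene and 69.3% G and C. The printed windows held 74.7%, 55.3% and 65.7% G and C for Lhx2, Lhx9 and Lmx1b, beside a median of 52.7% over 32851 mouse promoter windows. The letters GACCACCCA, a GLI binding motif, were on neither strand of the 14 windows of these genes, and 0.253% of all windows held them. The palindrome TAATTA, of the kind that LIM homeodomains bind, was also in none of the 14 windows, and 5.29% of all windows held it. Absence of these letters from 300 bases says nothing of binding elsewhere.

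Values are TPM, a transcript level scaled by gene length and by the library total. Each comparison used limma on log2(TPM + 1) and all genes that reached 1 TPM in 3 or more of its libraries, with p-values adjusted by the Benjamini-Hochberg method and a threshold of 0.05. Differences on this scale understate the change of genes with low TPM. Depth was estimated at 38.1 to 56.8 M reads a library, at which 20.7 to 29.3 reads per kilobase make 1 TPM. Gli3 itself had 44.2, 15.8 and 44.6 TPM in E9.25 WT and 14.3 to 20.8 TPM in E9.25 Gli3-/-, so that WT replicate 2 lay within the Gli3-/- range (difference -0.74, limma adjusted p = 0.223). At E10.5 Gli3 had 73.4 to 89.7 TPM in WT and 38.7 to 40.9 TPM in Gli3-/- (difference -1.01, limma adjusted p = 0.000335). Replicate 2 of E9.25 WT also had the fewest reads (38.1 M) and the fewest genes at 1 TPM or more (13276), and Rlim, a ubiquitin ligase that acts on Ldb complexes, was at 22.9 TPM there and at 49.9 TPM or more in every other library. The E9.25 results are therefore given without it as well where they turn on it. The median tested gene was 0.23 higher on the log2 scale in Gli3-/- at E9.25 and differed by -0.02 at E10.5.

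Levels differed widely between the genes. In E9.25 WT buds Ldb1 led with 133 ± 22.6 TPM (SD, n = 3), followed by Lhx9 at 65.5 TPM, Lmx1b at 46.9 TPM and Lhx2 at 45.3 TPM, and the ranges of Lhx9, Lmx1b and Lhx2 overlapped from each to the next. Ldb2 came next at 5.5 TPM, and Isl1, Lmx1a, Isl2, Lhx6 and Lhx8 had means of 0.0248 to 1.52 TPM. In E9.25 Gli3-/- buds the order of the LIM homeobox genes was Lmx1b, Lhx9 and Lhx2, at 32.1, 21.9 and 11.1 TPM, with each range overlapping the next. In E10.5 WT buds Lhx9 (194 TPM) and Ldb1 (191 TPM) shared the top with overlapping ranges, and Lhx2 (78.9 TPM) overlapped Lmx1b (72.2 TPM). In E10.5 Gli3-/- buds the ranges of Ldb1, Lhx9, Lmx1b, Lhx2 and Ldb2 did not overlap from each to the next. Lhx2, Lhx9 and Lmx1b together made 97.3 to 98.2% of the summed TPM of the 8 LIM homeobox genes in E9.25 WT and 83.8 to 93.2% in E9.25 Gli3-/-.

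**Figure D1:**
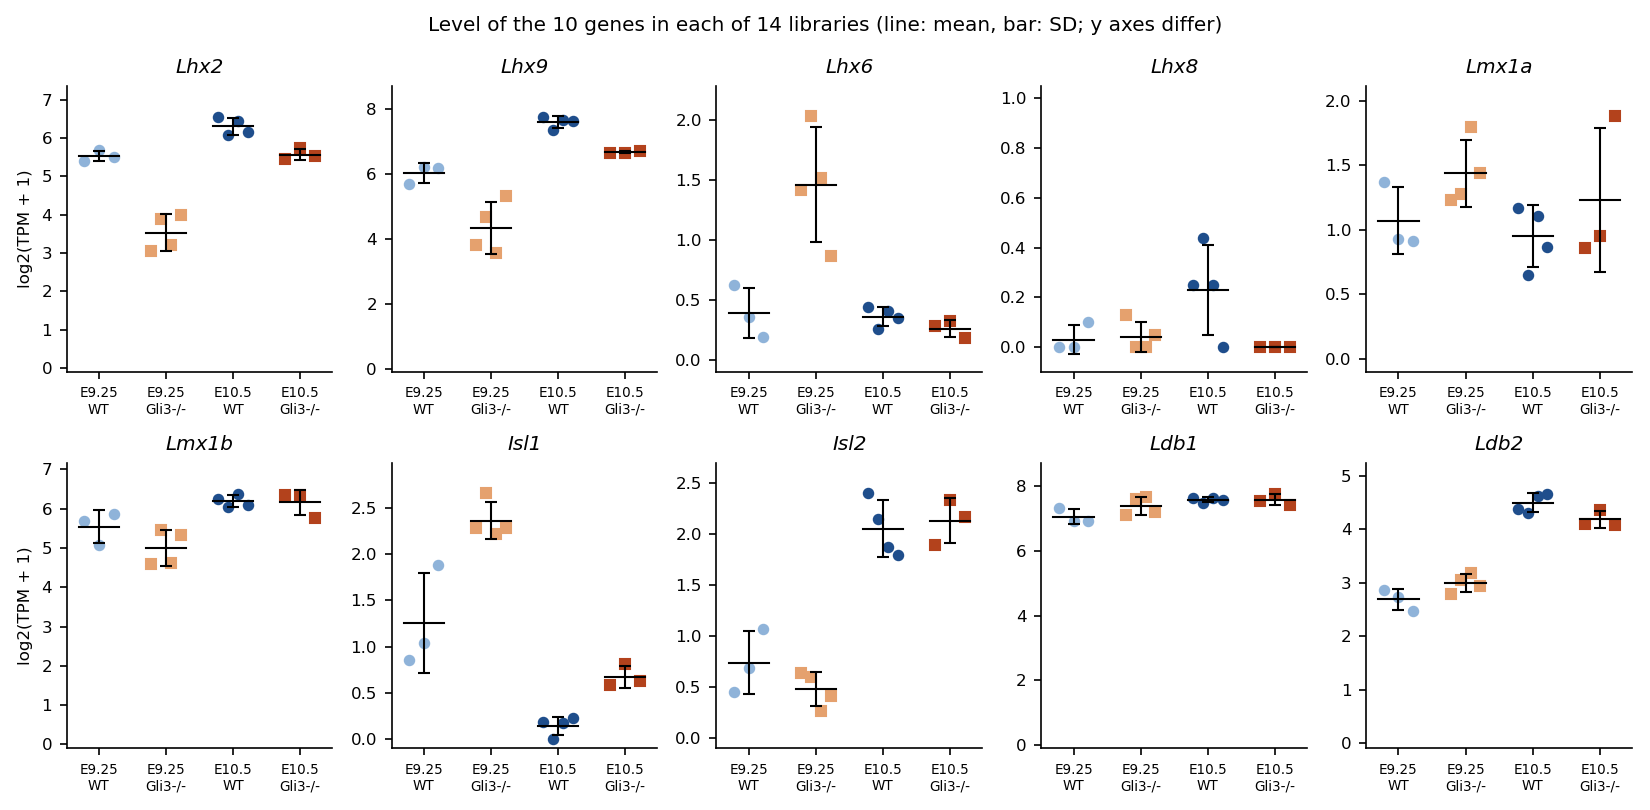
Level of each of the 10 genes as log2(TPM + 1), 1 point per library, by stage and genotype (horizontal line, mean; bar, SD; y axes differ between genes). Lhx2 sits at 7.24 to 15.0 TPM in the 4 E9.25 Gli3-/- libraries, under all 3 WT libraries, while Ldb1 overlaps between genotypes at both stages.

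Lhx2 (ENSMUSG00000000247.11, chr2:38339281-38369733, plus strand), the LIM homeobox gene of distal limb mesenchyme, fell in Gli3-/- buds at both stages. At E9.25 it had 41.1, 50.2 and 44.6 TPM in the WT libraries and 7.24, 13.8, 8.16 and 15.0 TPM in the Gli3-/- libraries. Every Gli3-/- library was below every WT library, and replicates 1 and 3 were the lowest. The log2 difference was -2.00 ± 0.25 (SE, 95% interval -2.54 to -1.45, limma adjusted p = 0.0142), and relative to the median tested gene it was -2.22. Of the 10 genes 8 were tested at E9.25, and Lhx2 was the 1 that passed, where 0.136% of all tested genes passed in either direction and 0.0271% were lower. The adjusted p rose above the threshold without WT replicate 3 (0.0951), Gli3-/- replicate 1 (0.0566) or Gli3-/- replicate 3 (0.0618), and with no filter on low TPM (0.235), while the difference stayed between -2.23 and -1.76 over all alternatives. Without WT replicate 2 it was -1.92 (limma adjusted p = 0.0284). With no filter limma called 0 of all 26828 genes.

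At E10.5 Lhx2 had 91.8, 66.1, 86.6 and 71.1 TPM in WT and 42.5, 52.1 and 45.6 TPM in Gli3-/-. The genotypes did not overlap, and the Gli3-/- values reached those of E9.25 WT. The difference was -0.74 ± 0.12 (SE, 95% interval -1.01 to -0.46, limma adjusted p = 0.0105). Together with Lhx9 it made 2 of 7 tested genes that fell at E10.5, where 4.77% of all tested genes passed and 2.93% were lower. The call for Lhx2 was kept with each of the 7 libraries left out and lost with no filter (limma adjusted p = 0.0555), with a replicate block by title numbers (limma adjusted p = 0.113) or in a fit of all 14 libraries (limma adjusted p = 0.0935). A block by the numbers of the deposited tables kept it.

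Lhx9 (ENSMUSG00000019230.14, chr1:138825186-138848577, minus strand), the paralog of Lhx2 that acts beside it in the limb bud, fell in Gli3-/- buds at E10.5. It had 215, 162, 201 and 198 TPM in E10.5 WT and 100, 98.7 and 103 TPM in E10.5 Gli3-/-. The Gli3-/- libraries lay within a narrow range that was below every WT library. The difference was -0.93 ± 0.09 (SE, 95% interval -1.14 to -0.72, limma adjusted p = 0.000806), and it passed with each library left out but not in a fit of all 14 libraries (limma adjusted p = 0.176).

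At E9.25 Lhx9 had 50.8, 73.2 and 72.5 TPM in WT and 13.02, 24.8, 11.0 and 39.0 TPM in Gli3-/-. These ranges did not overlap either, and Gli3-/- replicate 4 was the nearest to WT. The difference of -1.69 ± 0.37 (SE, 95% interval -2.50 to -0.87) did not pass (limma adjusted p = 0.143). Leaving out Gli3-/- replicate 4 gave -2.01, which passed (limma adjusted p = 0.0238), as 1 of 7 fits with a library left out. Without WT replicate 2 the difference was -1.60 (limma adjusted p = 0.291), and the highest limma adjusted p of the 7 was 0.386. Of 9 other alternatives 2 passed it, a replicate block and a fit of all 14 libraries (limma adjusted p = 0.0127). The fit of all 14 libraries called 686 genes higher and 110 lower of 16368, where the fit of the 7 E9.25 libraries called 16 and 4 of 14760. The TPM of Lhx9 over that of Lhx2 was 1.24 to 1.62 in E9.25 WT, 1.34 to 2.59 in E9.25 Gli3-/-, 2.32 to 2.78 in E10.5 WT and 1.90 to 2.35 in E10.5 Gli3-/-, so that the genotypes overlapped at both stages.

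In a model of all 14 libraries the genotype difference of Lhx2 shrank from E9.25 to E10.5. The interaction of stage and genotype was 1.26 ± 0.29 (SE, 95% interval 0.63 to 1.89, limma adjusted p = 0.0402), and Lhx2 was the 1 of 9 tested genes that passed, where 2.13% of all tested genes passed. The call lay close to the threshold. It was lost when any of the 7 E10.5 libraries, E9.25 WT replicate 2 or 3, or E9.25 Gli3-/- replicate 3 was left out, with values of 1.10 to 1.42 and limma adjusted p from 0.0134 to 0.102 over the 14 libraries left out. It was also lost with no filter (limma adjusted p = 0.0974), with quality weights (0.92, limma adjusted p = 0.0644) and with a replicate block (1.37, limma adjusted p = 0.121). For Lhx9 the interaction was 0.75 (95% interval -0.17 to 1.68, limma adjusted p = 0.306).

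Lmx1b (ENSMUSG00000038765.13, chr2:33560965-33640511, minus strand), which specifies dorsal limb mesenchyme, did not pass in either genotype comparison. At E9.25 it had 50.2, 32.7 and 57.6 TPM in WT and 23.2, 43.1, 23.4 and 38.9 TPM in Gli3-/-. WT replicate 2 lay within the Gli3-/- range, and Gli3-/- replicates 1 and 3 were again the lowest. The difference was -0.55 (95% interval -1.14 to 0.04, limma adjusted p = 0.242), and without WT replicate 2 it was -0.78 (limma adjusted p = 0.396). At E10.5 Lmx1b had 74.5, 65.1, 82.3 and 67.0 TPM in WT and 80.8, 80.0 and 53.7 TPM in Gli3-/-. The difference of -0.03 had a 95% interval of -0.36 to 0.30 (limma adjusted p = 0.935), and its sign changed with size factors and with single libraries left out. The TPM of Lhx2 over that of Lmx1b was 0.775 to 1.53 in E9.25 WT and 0.313 to 0.387 in E9.25 Gli3-/-, and 1.02 to 1.23 in E10.5 WT and 0.527 to 0.85 in E10.5 Gli3-/-. This ratio did not overlap between genotypes at either stage.

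Of the other genes of dorsoventral limb patterning, Wnt7a, the dorsal ectodermal ligand, and En1, the ventral ectodermal factor, did not pass at either stage. At E10.5 Wnt7a differed by -0.30 (95% interval -0.74 to 0.15) and En1 by -0.35 (95% interval -0.72 to 0.02). Wnt5a, a ligand of distal mesenchyme, rose by 0.92 at E10.5 (limma adjusted p = 0.0056). That was 1 of 3 tested at E10.5, where 1.84% of all tested genes were higher. At E9.25, 0 of 3 passed, and limma gave 0 at an unadjusted p under 0.05. The list medians were -0.30 at E10.5 and -0.01 at E9.25, beside -0.02 and 0.23 for all tested genes.

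The opposite-strand gene C130021I20Rik (chr2:33641193-33646354) starts 95 bases upstream of the RefSeq start of Lmx1b, inside the Lmx1b window printed above. It had 42.2, 35.5 and 61.3 TPM in E9.25 WT and 15.5, 26.1, 11.6 and 29.6 TPM in E9.25 Gli3-/-. These ranges did not overlap, unlike those of Lmx1b, but the difference of -1.18 did not pass (95% interval -1.86 to -0.49, limma adjusted p = 0.189). At E10.5 C130021I20Rik had 108 to 135 TPM in WT and 77.0 to 122 TPM in Gli3-/-, with a difference of -0.25 (limma adjusted p = 0.431). Over the 14 libraries it was the gene most like Lmx1b among 16368, with Pearson's r of log2(TPM + 1) of 0.962, and it was the third most like Lhx9 at 0.958. The libraries share stage and genotype, and r describes these 14 values only.

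**Figure D2:**
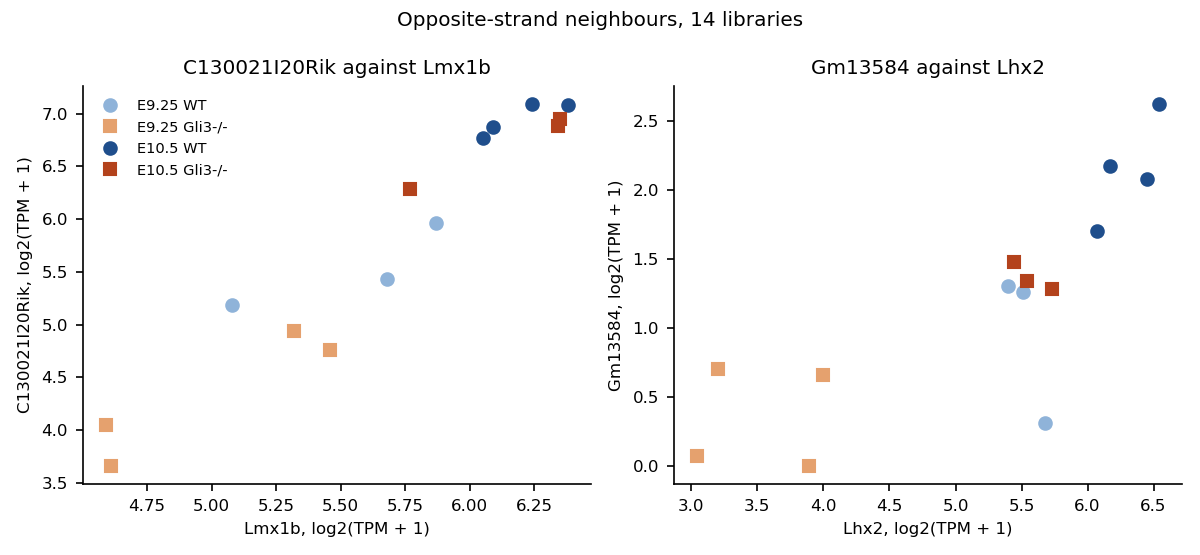
log2(TPM + 1) of 2 opposite-strand neighbours against their partner gene, 1 point per library for all 14 libraries. C130021I20Rik follows Lmx1b over the libraries. Gm13584, which is under 6 TPM throughout, has its lowest group mean in E9.25 Gli3-/-, as Lhx2 does. E9.25 WT replicate 2, at 0.24 TPM of Gm13584 and 50.2 TPM of Lhx2, lies within the E9.25 Gli3-/- range of Gm13584.

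A further opposite-strand transcript, Gm13584 (chr2:38359580-38363980), lies inside Lhx2. It had 1.46, 0.24 and 1.39 TPM in E9.25 WT and 0 to 0.63 TPM in E9.25 Gli3-/-, and was not tested there. At E10.5 it had 5.14, 2.25, 3.23 and 3.50 TPM in WT and 1.79, 1.42 and 1.53 TPM in Gli3-/-, a difference of -0.78 that did not pass (95% interval -1.23 to -0.32, limma adjusted p = 0.0636). The E10.5 genotypes did not overlap. Whether reads were assigned by strand is not given in the sources used here, so that reads of Lhx2 and Gm13584 cannot be told apart. Pprc1, a gene of the opposite strand that overlaps Ldb1, had 29.7 to 97.4 TPM, and the same limit holds for Ldb1.

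Ldb1 (ENSMUSG00000025223.14, chr19:46032593-46045214, minus strand), the main cofactor by level, did not pass in either genotype comparison. It had 159, 120 and 120 TPM in E9.25 WT and 138, 194, 200 and 145 TPM in E9.25 Gli3-/-. The ranges overlapped, with Gli3-/- replicates 2 and 3 highest, and the difference was 0.34 (95% interval -0.05 to 0.72, limma adjusted p = 0.254), and 0.11 above the median tested gene. At E10.5 the mean was 191 TPM in both genotypes, with a range of 178 to 198 TPM in WT and 171 to 216 TPM in Gli3-/-. The 95% interval of that difference was -0.19 to 0.19 (limma adjusted p = 0.997).

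Ldb2 (ENSMUSG00000039706.11, chr5:44472132-44799680, minus strand), the second cofactor, had 6.27, 5.65 and 4.58 TPM in E9.25 WT and 5.90, 7.30, 8.07 and 6.70 TPM in E9.25 Gli3-/-. The ranges overlapped (difference 0.30, 95% interval -0.12 to 0.72, limma adjusted p = 0.323). At E10.5 it had 19.8, 18.9, 23.8 and 24.5 TPM in WT and 16.3, 19.7 and 16.1 TPM in Gli3-/-. Gli3-/- replicate 2 was above WT replicate 2, and the difference of -0.31 did not pass (95% interval -0.57 to -0.04, limma adjusted p = 0.193).

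The sum of the 8 LIM homeobox genes over the sum of the 2 cofactors was 0.88 to 1.45 in E9.25 WT and 0.244 to 0.658 in E9.25 Gli3-/-. At E10.5 it was 1.51 to 1.79 in WT and 1.00 to 1.12 in Gli3-/-. The genotypes did not overlap at either stage, and no test was made because the genes were chosen with results known. The summed LIM homeobox TPM was 145 to 180 in E9.25 WT, 50.7 to 99.7 in E9.25 Gli3-/-, 297 to 387 in E10.5 WT and 209 to 237 in E10.5 Gli3-/-, while the Ldb sum was 124 to 236 over all libraries. These are transcript levels, and protein was not measured in these tables.

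**Figure D3:**
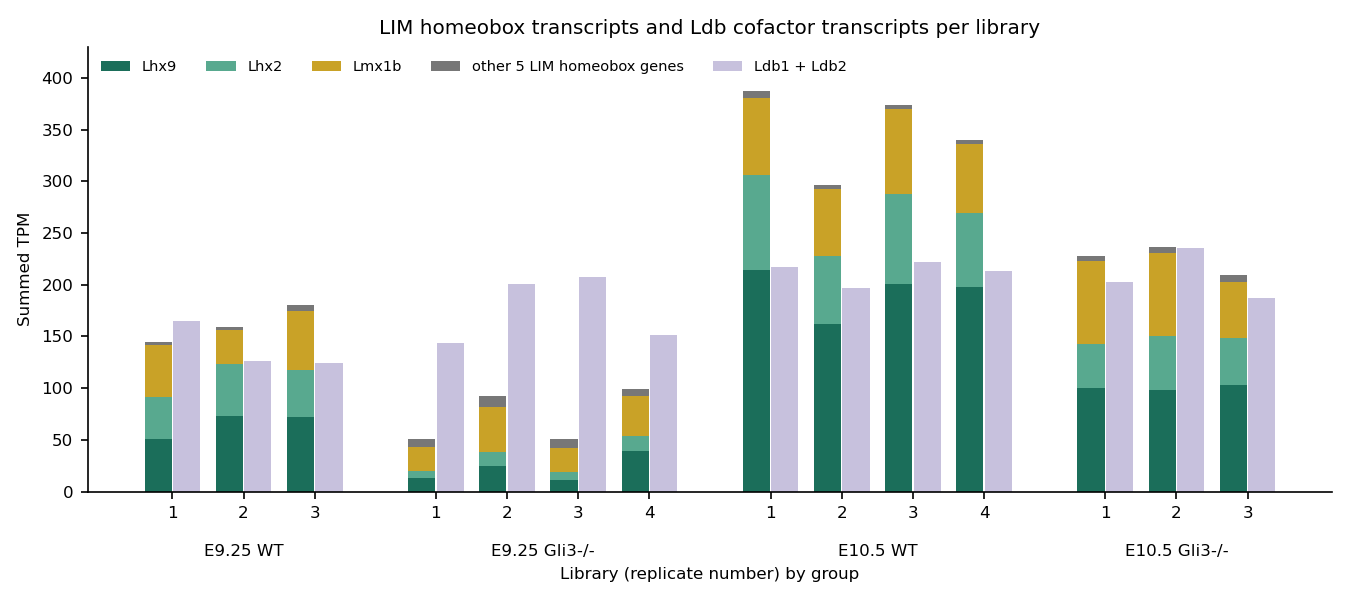
Summed TPM of the LIM homeobox genes (stacked bars) beside the summed TPM of Ldb1 and Ldb2 (pale bars), 1 pair of bars per library. In the 4 E9.25 Gli3-/- libraries the LIM homeobox sum is 50.7 to 99.7 TPM and stays below the Ldb sum, and in E10.5 WT it is 297 to 387 TPM and exceeds it.

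Among LIM-only factors and other partners of Ldb, Lmo2, known from blood and vessel formation, rose at E10.5. It had 25.2, 30.9, 27.8 and 23.6 TPM in WT and 38.9, 52.9 and 61.2 TPM in Gli3-/-, without overlap (difference 0.88 ± 0.15, SE, limma adjusted p = 0.0109). In the same libraries 0 of 5 endothelial and 0 of 5 erythroid genes passed with limma, each with 0 at an unadjusted p under 0.05. The endothelial median was 0.05, and the erythroid median was 0.56, with a summed TPM of 10107 to 13825 in WT and 11936 to 33323 in Gli3-/-. The part of blood content in the Lmo2 difference was not tested. Lmo2 was the 1 of 8 tested that passed at E10.5, where 1.84% of all tested genes were higher, and 0 of 7 passed at E9.25, where limma gave 1 at an unadjusted p under 0.05. The list medians were 0.14 at E10.5 and -0.18 at E9.25, beside -0.02 and 0.23 for all tested genes. Lmo1 had 4.46 to 9.21 TPM in E9.25 WT and 3.08 to 3.50 TPM in E9.25 Gli3-/-, and 19.0 to 33.2 TPM in E10.5 WT and 44.9 to 49.0 TPM in E10.5 Gli3-/-. It was thus below WT at E9.25 and above WT at E10.5 with no overlap, and although neither difference passed (-0.80 and 0.69, limma adjusted p = 0.212 and 0.0563), the interaction did (1.49, limma adjusted p = 0.0154). The interaction of Lmo2 also passed (1.09, limma adjusted p = 0.0227).

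Isl1 (ENSMUSG00000042258.13, chr13:116298281-116309689, minus strand), a factor of cardiac, motor neuron and early hindlimb progenitors, was low in all libraries. It had 0.82, 1.06 and 2.68 TPM in E9.25 WT and 3.85, 5.30, 3.65 and 3.84 TPM in E9.25 Gli3-/-. All 4 Gli3-/- libraries were above all 3 WT libraries, but the difference of 1.10 ± 0.27 (SE, 95% interval 0.50 to 1.69) did not pass (limma adjusted p = 0.153). Isl1 passed the filter through the Gli3-/- libraries, since 2 WT libraries reached 1 TPM, so that its difference only describes these values. At E10.5 Isl1 was below the filter, at 0 to 0.17 TPM in WT and 0.49 to 0.75 TPM in Gli3-/-, and was not tested.

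Lhx6 (ENSMUSG00000026890.19, chr2:36081953-36105408, minus strand), best known from forebrain interneurons and jaw mesenchyme, had 0.53, 0.28 and 0.14 TPM in E9.25 WT and 1.67, 3.09, 1.86 and 0.83 TPM in E9.25 Gli3-/-. The ranges did not overlap, and the gene was tested only because 3 Gli3-/- libraries reached 1 TPM. The limit given for Isl1 holds for Lhx6 too. The Lhx6 difference was 1.07 ± 0.28 (SE, limma adjusted p = 0.188). All 7 E10.5 libraries had 0.14 to 0.36 TPM of Lhx6, which was not tested there.

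Markers of flank and coelomic lining also differed between the genotypes at E9.25. The summed TPM of 7 such markers (Foxf1, Gata4, Gata5, Gata6, Hand1, Wt1 and Upk3b) was 71.0, 32.8 and 27.4 in WT and 152, 217, 231 and 85.3 in Gli3-/-, without overlap. Foxf1 passed the filter only through the Gli3-/- libraries and is given as a level, 0.22 to 2.80 TPM in WT and 12.1 to 35.5 TPM in Gli3-/-. Of the other 6, Gata4 rose by 2.87 (limma adjusted p = 0.0128), where 0.108% of all tested genes were higher, and the median of the 6 was 1.23, beside 0.23 for all tested genes. No marker of this list was at 0 in either E9.25 group. Within Gli3-/-, replicate 4 was lowest in flank markers and highest in Lhx2 and Lhx9. Replicate 1, the next lowest in flank markers, had the lowest Lhx2 (7.24 TPM). At E10.5 the same sum was 1.73 to 4.01 TPM in WT and 1.16 to 1.85 TPM in Gli3-/-. In bulk tissue, fewer cells of a type and less RNA per cell cannot be told apart, and the part of flank cells in the E9.25 differences was not tested.

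**Figure D4:**
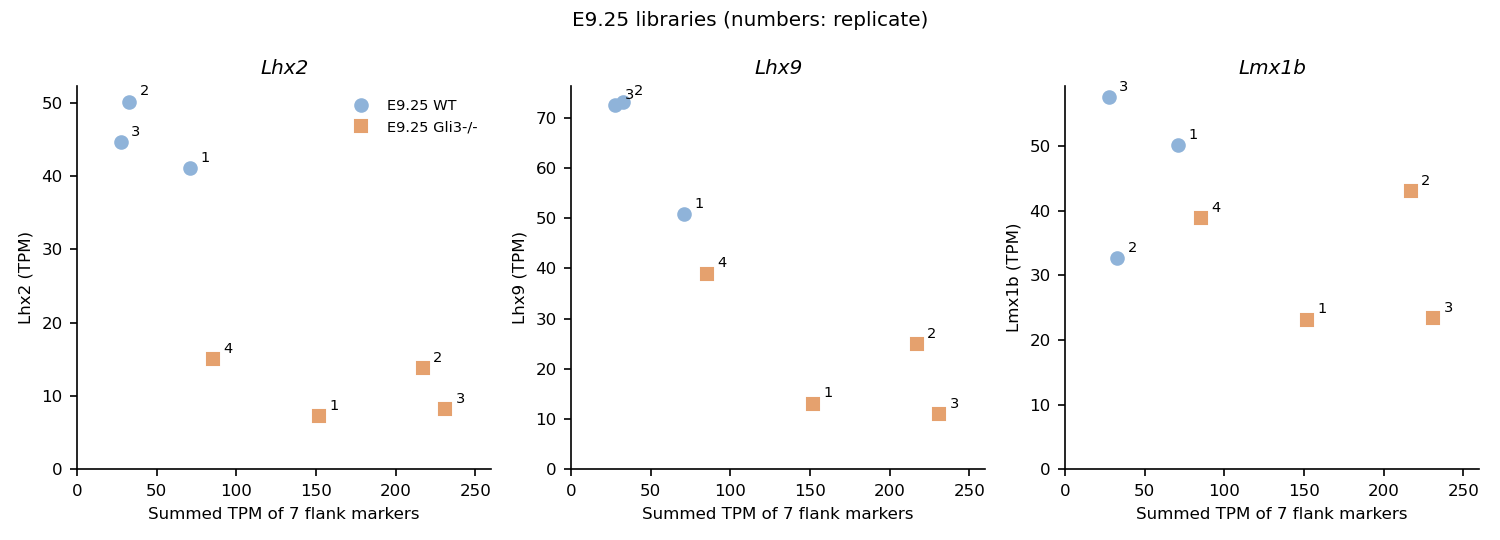
TPM of Lhx2, Lhx9 and Lmx1b against the summed TPM of 7 flank markers in the 7 E9.25 libraries, with replicate numbers beside the points. WT libraries lie at 27.4 to 71.0 TPM of flank markers and Gli3-/- libraries at 85.3 to 231 TPM, so that the genotypes do not overlap on either axis for Lhx2 and Lhx9.

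Limb mesenchyme markers differed in direction at E9.25. By limma 0 of 8 passed and 4 had an unadjusted p under 0.05. Of these 4, Hoxa9 was lower (-1.37, limma adjusted p = 0.08), with 32.8 to 40.2 TPM in WT and 9.55 to 21.8 TPM in Gli3-/- and no overlap, while Meis1 (0.58), Meis2 (0.53) and Tbx5 (0.58) were higher. The median of such a list, 0.08, says little. The summed TPM was 814 to 1011 in WT and 766 to 1142 in Gli3-/-, of which Twist1 was the largest part. At E10.5, 6 of 8 fell, where 2.93% of all tested genes were lower. Among them, Meis1 fell by 1.40, Meis2 by 1.25, Msx1 by 0.86 and Twist1 by 0.65. The list median was -0.60, and the summed TPM was 1028 to 1219 in WT and 744 to 799 in Gli3-/-. Lhx2 and Lhx9 thus fell at E10.5 beside 6 of the 8 mesenchyme markers, and the part of mesenchyme content in either stage's differences was not tested.

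Cardiac markers summed to 1.21 to 2.63 TPM in E9.25 WT and 2.60 to 8.04 TPM in E9.25 Gli3-/-. Myl7 had a mean of 0.386 TPM in WT and 3.1 TPM in Gli3-/-, and Tnnt2 of 1.56 and 2.98 TPM, both with overlapping ranges. Means of Myh6 were 0.00275 and 0.0188 TPM, and Nkx2-5, a defining marker, was at 0 in every E9.25 library. Hindlimb markers summed to 0.765 to 3.41 TPM in WT and 1.01 to 4.29 TPM in Gli3-/- at E9.25, and differed in direction. Pitx1 had a mean of 1.43 TPM in WT and 3.05 TPM in Gli3-/-, with overlapping ranges. Tbx4 had 0.229 to 0.274 TPM in WT and 0 to 0.0315 TPM in Gli3-/-, without overlap, and Hoxc10 had means of 0.0536 and 0.0226 TPM. Markers of neurons and neural crest summed to 7.27 to 14.3 TPM in WT and 4.24 to 6.03 TPM in Gli3-/- at E9.25, with Mnx1 and Chat at 0 in all 7 libraries. Most of that sum was Tubb3, and Sox10, a neural crest factor of the same list, was higher in Gli3-/- (0.44 to 0.99 TPM) than in WT (0.17 to 0.20 TPM). The part of neural, cardiac and hindlimb cells in the Isl1 values was not tested.

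Isl2, Lmx1a and Lhx8 were near or below the filter. Isl2 (ENSMUSG00000032318.12, chr9:55538672-55546180, plus strand), known from motor neurons, had 0.20 to 1.10 TPM in all E9.25 libraries and was not tested there. At E10.5 it had 4.29, 3.44, 2.66 and 2.47 TPM in WT and 2.71, 4.03 and 3.49 TPM in Gli3-/-, with overlap (difference 0.08, 95% interval -0.33 to 0.48, limma adjusted p = 0.865). Lmx1a (ENSMUSG00000026686.14, chr1:167689237-167848741, plus strand), known from roof plate and dopaminergic progenitors, had 0.57 to 2.67 TPM throughout and did not pass in any comparison. At E9.25 it was tested only through the Gli3-/- libraries. Its difference was 0.37 at E9.25 (95% interval -0.13 to 0.87) and 0.28 at E10.5 (95% interval -0.30 to 0.86). Lhx8 (ENSMUSG00000096225.7, chr3:154306294-154330659, minus strand), known from forebrain cholinergic neurons and tooth mesenchyme, was at most 0.355 TPM, was listed at 0 in all 3 E10.5 Gli3-/- libraries and was tested in no comparison.

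From E9.25 whole buds to E10.5 anterior buds, the abundant genes of the family rose in WT. Over the 5 genes with a mean of at least 5 TPM across all libraries, a threshold set after their values were seen, 5 of 5 rose in WT, where 48.7% of all tested genes passed and 38.1% were higher. In Gli3-/- buds 4 of 5 rose, where 25.0% of all tested genes passed and 15.8% were higher. The shares of all genes are large, and the median tested gene was 0.34 higher at E10.5 in WT and 0.06 higher in Gli3-/-. The 2 stage comparisons share no libraries with each other.

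Ldb2 had the largest stage difference in WT among these 5 genes, at 1.81 ± 0.15 (SE, limma adjusted p = 0.000108), from a mean of 5.50 TPM to 21.7 TPM. In Gli3-/- it rose by 1.20 ± 0.15 (SE, limma adjusted p = 0.000248), from 6.99 to 17.4 TPM. The TPM of Ldb1 over that of Ldb2 went from 21.3 to 26.1 in E9.25 WT to 7.72 to 9.92 in E10.5 WT, and from 21.6 to 26.6 in E9.25 Gli3-/- to 10.6 to 11.4 in E10.5 Gli3-/-. Both stages were apart in both genotypes. Ldb1 itself rose by 0.53 in WT (limma adjusted p = 0.00655), which was 0.19 above the median tested gene, and differed by 0.19 in Gli3-/- (95% interval -0.15 to 0.53, limma adjusted p = 0.407).

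Lhx9 rose by 1.56 ± 0.15 in WT (SE, limma adjusted p = 0.000193) and by 2.32 ± 0.35 in Gli3-/- (SE, limma adjusted p = 0.000911). Lhx2 rose by 0.78 in WT (95% interval 0.47 to 1.09) and by 2.04 in Gli3-/- (95% interval 1.52 to 2.55). Lmx1b rose by 0.64 in WT (limma adjusted p = 0.0199) and by 1.16 in Gli3-/- (limma adjusted p = 0.00581). With median-of-ratios size factors the WT calls of Lhx2 (0.42, limma adjusted p = 0.0779), Lmx1b (0.29, limma adjusted p = 0.154) and Ldb1 (0.16, limma adjusted p = 0.253) were lost, and that of Lmx1b was also lost without E10.5 WT replicate 3 (limma adjusted p = 0.0522).

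Isl2 in both genotypes, and Isl1 and Lhx6 in Gli3-/-, passed the filter only through the stage where they were high, and they are given as levels only. Isl2 went from a mean of 0.693 to 3.21 TPM in WT and from 0.401 to 3.41 TPM in Gli3-/-. In Gli3-/- Isl1 went from 4.16 to 0.597 TPM and Lhx6 from 1.86 to 0.201 TPM. Isl1 and Lhx6 were thus lower at E10.5, against the direction of the abundant genes. The flank marker sum was also lower at E10.5 in both genotypes, and stage and region cannot be told apart for these values.

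Most partners of Ldb were higher at E10.5. Lmo3 passed the filter only through E10.5, and of the other 7, 5 rose in WT, where 38.1% of all tested genes were higher, and 6 in Gli3-/-, where 15.8% were. Their medians were 0.84 and 0.83, beside 0.34 and 0.06 for all tested genes. In WT, Lmo2 (-0.29, limma adjusted p = 0.0902) and Rlim (0.28, limma adjusted p = 0.468) did not pass. With size factors the genes called higher in WT went from 5885 to 3073 of 15444 and those called lower from 1635 to 3334. Lmo1 rose by 1.97 in WT and by 3.47 in Gli3-/- (limma adjusted p = 0.000704 and 7.85e-08). Ssbp3, a single-stranded DNA-binding protein that stabilizes Ldb complexes, was the most abundant of the partners, at a mean of 202 TPM in E9.25 WT and 332 TPM in E10.5 WT, and rose by 0.71 (limma adjusted p = 0.00217).

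**Figure D5:**
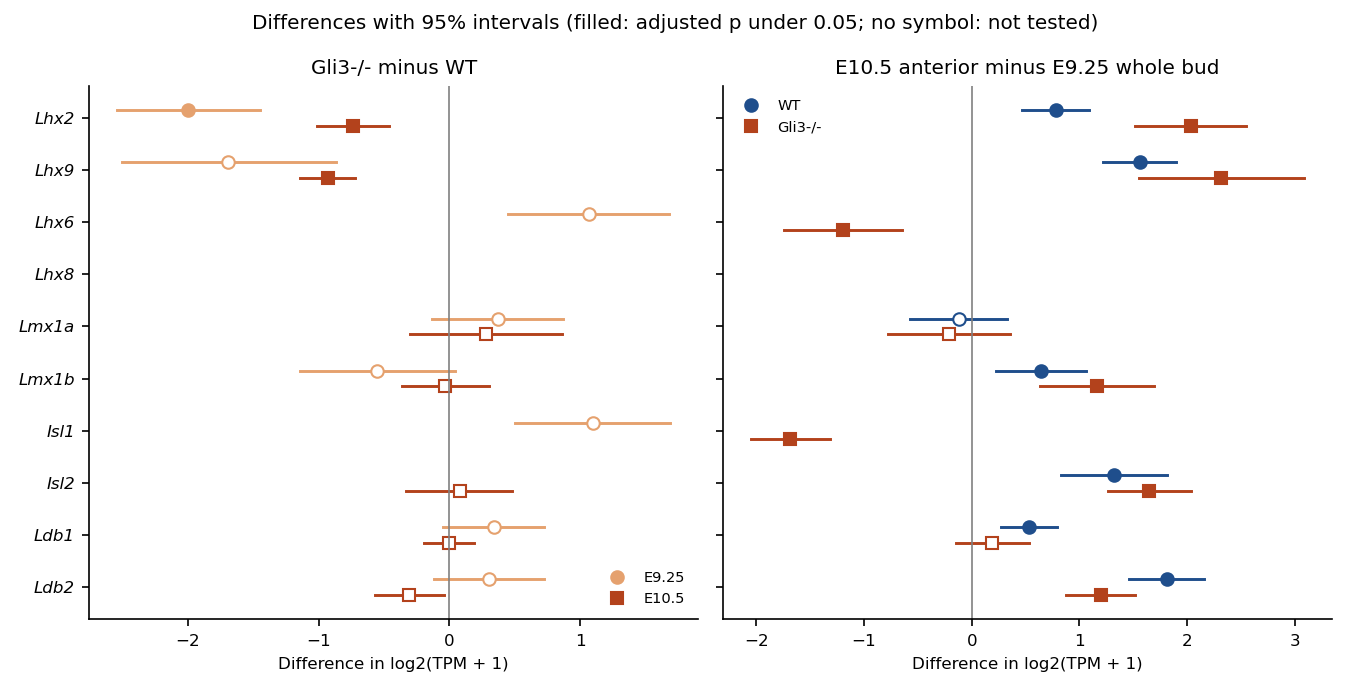
Differences in log2(TPM + 1) with 95% intervals, 1 row per gene, between genotypes (left, by stage) and between stages (right, by genotype). Filled symbols passed limma's test, open symbols did not, and genes without a symbol were not tested. On the right, Isl2 in both genotypes, and Isl1 and Lhx6 in Gli3-/-, passed the filter only through the stage where they were high. Their filled symbols describe levels only. On the left, Isl1, Lhx6 and Lmx1a at E9.25 passed the filter through the Gli3-/- libraries. The Lhx2 difference is -2.00 for E9.25 and -0.74 for E10.5, and the Ldb1 intervals between genotypes include 0.

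The members were alike to different degrees over the 14 libraries. Lhx2 and Lhx9 were each the other's most similar gene of 16368, with r = 0.970. Fzd10, a Wnt receptor, was next for Lhx2 (r = 0.946), and Cyp27a1 was in the first 3 of both (r = 0.936 for Lhx2 and 0.966 for Lhx9). The genes most like Lhx6 were Rpp25, Fendrr and Zfpm2 (r from 0.972 to 0.984), and those most like Isl1 were Unc45b, Gm24496 and Gm6382 (r from 0.945 to 0.950). Lmx1b was followed, after C130021I20Rik, by Ppfibp2 and Arntl (r = 0.948 and 0.945).

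Ldb1 was most like Ell, Fam189b and Ctdsp2 (r from 0.980 to 0.985), and Ldb2 was most like Boc, a Hedgehog co-receptor, Pak1 and Iglon5 (r from 0.989 to 0.991). Isl2 was most like Hoxa11os, Gm5514 and Shox2 (r from 0.964 to 0.969). Lmx1a was most like Tal1, Gfi1b and Sptb (r from 0.886 to 0.946), genes known from red blood cells, and its highest value of 2.67 TPM was in E10.5 Gli3-/- replicate 3. These r values describe 14 libraries that share stage, genotype and depth, and for Isl1, Lhx6, Isl2 and Lmx1a they rest on few TPM.

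The limb outgrowth loop in which Lhx2 and Lhx9 act gave the other genes of the pathway. The ligand genes Shh and Fgf4 passed the filter at E10.5 only through the Gli3-/- libraries and are given as levels: the 4 WT libraries list Shh at 0 and the Gli3-/- libraries at 1.17, 7.47 and 8.67 TPM, and Fgf4 had 0.50 to 1.34 TPM in WT and 5.63 to 10.44 TPM in Gli3-/-. Of the other 8 genes, 4 rose and 2 fell at E10.5, where 1.84% of all tested genes were higher and 2.93% lower. Their median was 0.59, beside -0.02 for all tested genes. Tbx2, which fell, differed by -1.59 (limma adjusted p = 0.00998). Fgf8, the ligand of the apical ridge, differed in direction between the stages. It had 40.3, 57.8 and 71.1 TPM in E9.25 WT and 18.3, 18.3, 17.6 and 36.6 TPM in E9.25 Gli3-/-, without overlap, and this lower level did not pass (-1.31, 95% interval -1.91 to -0.70, limma adjusted p = 0.13). At E10.5 it rose by 1.36 (limma adjusted p = 0.000501), and its interaction passed (2.67, limma adjusted p = 0.000732). At E9.25, 0 of 8 passed with limma and 3 had an unadjusted p under 0.05, with a list median of 0.08 beside 0.23. Fgf8 was thus below WT beside Lhx2 and Lhx9 at E9.25, and above WT at E10.5 where Lhx2 and Lhx9 fell.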

How the data were processed

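The data are 14 RNA-seq libraries of forelimb buds. Single reads of 100 bases were aligned by the authors with HISAT2, and they deposited, for each gene, the coverage (mean read depth per base, a signal), FPKM and TPM. The submitters' processing notes name mm10, and the tool that made the TPM is not given in the sources used here. The deposited TPM was used for every comparison. The authors' FPKM and coverage served only to estimate reads per library. No counts were used here, so that no count test was run. TPM of repeated gene IDs was summed, and log2(TPM + 1) was tested with limma 3.58.1 in R 4.3.3 (eBayes with a trend, two-sided), over genes with TPM of at least 1 in at least 3 libraries. Differences, 95% intervals and the interaction come from these fits. Each library counts as a replicate, and p-values measure the spread between pools. The procedure was tested on simulated data. Python 3.11.15, pandas 2.3.3, NumPy 2.4.6 and matplotlib 3.10.9 were used.

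The 10 genes, the gene lists and the tests were chosen with earlier results of these data known. All 10 genes are named in every comparison. From the other lists, genes that passed between genotypes are named, at most 4 per list by size, with any gene that a result turns on, and for each of the 10 genes that passed the filter the 3 genes with the highest r. The fits were repeated with each library left out, with all 14 libraries in 1 fit, with a replicate block, with quality weights for samples, after scaling by size factors (median of ratios) or quantiles, with no trend in eBayes, and with the filter removed or set at TPM 5 or the pseudocount at 0.1. The block by the numbers of the deposited tables was added after the data were seen. The other lists not described above passed as follows between genotypes: surface ectoderm 0 of 6, endothelium 0 of 5 and erythroid 0 of 5 at both stages by limma, with 0, 3 and 0 at an unadjusted p under 0.05 at E9.25 and 2, 0 and 0 at E10.5. Of the hindlimb, neural and cardiac lists, 1, 1 and 2 genes were tested at E9.25 and limma passed 0, with 0, 1 and 2 at an unadjusted p under 0.05.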

Additional observations from a re-analysis of the deposited data

Results flagged for a closer look

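In E9.25 Gli3-/- buds, replicate 2 had an Isl1 level of 2.66 on the log2(TPM + 1) scale (5.30 TPM), above the other 3 libraries, which had 3.65 to 3.85 TPM. The gap was over the 95% limit of Dixon's test for 4 values. Of 20 sets of 4 libraries that were examined, 1 was picked out in this way, and chance picks out about 1 in 20. Without this library the Isl1 difference between genotypes at E9.25 was 1.00 (limma adjusted p = 0.405).

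The effect of Gli3 loss on Lhx2 differed between stages by 1.26 on the log2 scale (limma adjusted p = 0.0402). Lhx2 was below WT in 4 of 4 Gli3-/- libraries at E9.25 and in 3 of 3 at E10.5. The call was lost with any of 10 of the 14 libraries left out, and the E10.5 tissue was anterior while the E9.25 tissue was whole, so that stage and region cannot be told apart.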

How the results depend on the processing

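Of 668 differences recomputed under an alternative, 613 kept their direction and their side of the threshold, 25 lost a call, 10 gained one and 20 changed sign, none of which had been called. The cause of these changes was not tested, except that filters change the number of genes tested and left-out libraries lower n. Between genotypes at E9.25, 1 of the 10 genes was called. With no filter limma called 0 (4 at an unadjusted p under 0.05), and it called 0 of all 26828 genes. In 1 fit of all 14 libraries limma called 4, where 686 of 16368 genes were higher and 110 lower. Isl1 and Lhx6 were among the 4 and passed the filter through 1 group. With each library left out limma called 0 to 2. At E10.5, where 2 were called, the fit of all 14 libraries called 0 by limma (3 at an unadjusted p under 0.05), where 131 of 16368 genes were higher and 255 lower. For stage, size factors called 3 in place of 6 in WT, where 3073 of 15444 genes were higher and 3334 lower. Both of these counts include Isl2, which passed the filter through 1 group. The filter at TPM 5 called 4 in place of 7 in Gli3-/-, where 1722 of 11314 genes were higher and 1154 lower. The 7 included Isl2, Isl1 and Lhx6, which passed the main filter through 1 group and did not reach the filter at TPM 5. For the interaction, in place of 1, limma called 0 with no filter (4 at an unadjusted p under 0.05), where 68 of 29422 genes were called positive and 187 negative. It called 2 without a trend, where 89 of 16368 genes were called positive and 344 negative, and 0 to 2 with each library left out.

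With the replicate block, limma called 2 at E9.25 (Lhx2 and Lhx9), 1 at E10.5 (Lhx9) and 0 for the interaction (3 at an unadjusted p under 0.05), and 2 at E10.5 with the numbers of the deposited tables. Of all genes it called 50 higher and 16 lower of 14760 at E9.25, and 67 higher and 97 lower of 15654 at E10.5. For the interaction it called 16 positive and 26 negative of 16368, and by the tables' numbers at E10.5 237 higher and 261 lower of 15654. The libraries were taken to share only a number: deviations of same-numbered libraries had r of -0.182 to -0.152 for E9.25, and for E10.5 the r values ran between -0.16 and 0.123. Pairs with different title numbers had r of -0.22 to 0.217 for E9.25 and -0.147 to 0.292 for E10.5. The E10.5 Gli3-/- tables carry the numbers 2 to 4 where the titles have 1 to 3. By the tables' numbers r was 0.0504, 0.17 and 0.292 (lowest, mean and highest). Pairs with different numbers there had r of -0.16, -0.057 and 0.123. Whether either numbering pairs libraries is not known.

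Signs changed at E10.5 for Ldb1 (0.04 with size factors, 0.02 with the replicate block of the tables, -0.09 to 0.08 with a library left out), Isl2 (-0.14 with quality weights, -0.01 with the replicate block of the titles, -0.02 to 0.19 with a library left out) and Lmx1b (0.006 with size factors, -0.13 to 0.16 with a library left out). They also changed for Lmx1a between stages in WT (0.06 with quality weights) and in the interaction (0.21 with quantile normalization, 0.06 with size factors, -0.41 to 0.09 with a library left out), and for Isl1 in the interaction (0.27 with a pseudocount of 0.1). Of 40 group levels, 35 moved by less than 1 SD with size factors. Genes near 1 TPM rest on 20.7 to 29.3 reads per kilobase.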

Other observations

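Lhx1, a LIM homeobox gene of intermediate mesoderm that is not among the 10 genes above, had 2.70, 1.19 and 1.05 TPM in E9.25 WT and 5.68, 7.21, 8.36 and 4.31 TPM in E9.25 Gli3-/-. Every Gli3-/- library was above every WT library, and the difference of 1.50 did not pass (95% interval 0.89 to 2.12, limma adjusted p = 0.08). Within Gli3-/-, replicate 4 was lowest in Lhx1 and in the flank marker sum. At E10.5 Lhx1 was listed at 0 in 6 of 7 libraries. Its interaction (-1.48, limma adjusted p = 0.0212) therefore restates the E9.25 difference with its sign reversed, and adds no support to it. Lhx3, Lhx4 and Lhx5 were tested in no comparison.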
